A study of Nicotiana benthamiana with 12 samples.

Results

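The probes described here are the 100 tobacco array probes whose values in the transgenic line L2 stood highest over those of wild type (WT) across both growth conditions. They were chosen by the measured signals of both lines. For each probe the margin was the lowest of the 6 L2 values minus the highest of the 6 WT values, in the deposited table of log2 values. The array has 43759 probes, and on all 6 L2 arrays 20739 of them were well above background. From these, 48 were left out, of which 38 lay in one block of spots near the edge of the array and 10 were annotated in the study as APS reductase-like, Ycf2, Ycf3, maturase K or chloroplast NAD(P)H dehydrogenase. The 100 largest margins among the remaining 20691 probes were taken. The label of the set, higher in L2 in both conditions, held without overlap for only 15 of the 100: in the other 85 the lowest L2 array lay at or below the highest WT array, by up to 0.14 on the log2 scale. The set is therefore a ranking, in which the first few probes differ clearly between the lines and most of the rest differ little.

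The 12 one-colour arrays held leaf RNA of 2-week-old tobacco seedlings grown in soil at 25 °C, in 4 groups of 3 arrays. WT carried no transgene, and L2 carried CbFAD3, a desaturase gene of the alpine plant Chorispora bungeana, under the constitutive 35S promoter of cauliflower mosaic virus. Leaves of each line were taken without added salt, here called normal conditions, and from plants given 200 mM NaCl for 6 h, here called salt stress. L2 is 1 homozygous line, so what the transgene did and what is particular to that line cannot be told apart. Each sample pooled several plants, 3 according to the labels and 5 according to the methods. The probes of the array were designed for Nicotiana tabacum, while the labels name Nicotiana benthamiana.

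CbFAD3 is a microsomal omega-3 fatty acid desaturase. Enzymes of this family work in the endoplasmic reticulum, where they add a further double bond to linoleic acid and so make alpha-linolenic acid, a main fatty acid of plant membranes. Membranes richer in it are generally more fluid, but the study reported no significant change of fluidity in CbFAD3 plants under normal conditions. Alpha-linolenic acid is also the starting material of jasmonic acid, a hormone of wounding and stress. Salt stress limits water uptake, loads the tissue with sodium and changes the transcript levels of many genes within hours. No probe could be assigned to CbFAD3 from the names given, so the level of the transgene itself was not checked here. The scanner values name a probe by an expressed sequence tag, a GenBank entry or an assembly name and give no description. None of the 100 probes was among the 61 that the study annotated, so they are called here by probe name and accession, and no role is given to any of them. For 5 of the 100 the scanner values gave no accession.

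All values below are log2 signals relative to the 75th percentile of the array, and a difference of 1 is a 2-fold difference. One array stood apart from its label. L2 sample 1 under normal conditions correlated with the 3 WT arrays of that condition at r = 0.986 to 0.989 over the 20693 probes well above background on every array, and with the other 2 L2 arrays of its own group at r = 0.920 to 0.951. Those 2 arrays correlated with the WT salt arrays at r = 0.959 to 0.980. The 12 arrays lay on 3 slides of 4. Slide 1 held the 3 WT arrays and L2 sample 1 under normal conditions, slide 2 held L2 samples 2 and 3 under normal conditions and WT samples 1 and 2 under salt stress, and slide 3 held WT sample 3 and the 3 L2 samples under salt stress. Salt stress and slide can therefore not be told apart within WT. L2 also had no slide that held both of its conditions.

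The clearest difference between the lines was that of A_95_P006611 (accession CV021053). Under normal conditions it read -3.74, -3.90 and -3.94 in WT, against -1.67, -0.76 and -1.10 in L2. Under salt stress it read -3.14, -3.17 and -3.10 in WT, and -1.92, -1.17 and -0.08 in L2. Every L2 array was thus above every WT array, by at least 1.18. The group means differed by 2.68 under normal conditions (6.42-fold; SD 0.11 in WT and 0.46 in L2, n = 3 each) and by 2.08 under salt stress (4.23-fold; SD 0.03 and 0.92). Among the L2 arrays the lowest and the highest were both under salt stress, samples 1 and 3.

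A_95_P263916 (AM838197) came next, with a margin of 0.93. It read -2.59, -2.14 and -2.26 in WT against 0.49, 0.73 and 0.36 in L2 under normal conditions. Under salt stress the values were -2.22, -2.56 and -2.33 in WT and -0.57, -1.21 and 0.87 in L2. The 3 L2 arrays under normal conditions lay close together, whereas those under salt stress were spread, with sample 3 again the highest. The lines differed by 2.86 under normal conditions (7.25-fold) and by 2.07 under salt stress (4.19-fold).

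A_95_P094403 (BP532699) was the dimmest of the probes with a large difference. It read -4.95, -4.16 and -4.15 in WT against -1.80, -1.18 and -2.02 in L2 under normal conditions. Under salt stress it read -5.81, -6.33 and -5.26 in WT and -3.37, -3.69 and -0.93 in L2. In WT it was well above background on 2 of 3 arrays under normal conditions and on 0 of 3 under salt stress, so under salt stress the WT level is only a bound. With each WT array set to the higher of its own value and the lowest signal well above background on that array, the L2 mean was at least 4.72-fold higher under salt stress, and the measured means differed by 3.14. L2 sample 3, at -0.93, raised the L2 mean behind both values, and they would be lower without it. Under normal conditions the means differed by 2.75 (6.75-fold), with the WT array not well above background taken at its measured value. A_95_P094403 was the only one of the 100 well above background on fewer than 5 WT arrays, and 98 of the 100 were so on all 12 arrays. The remaining probe, A_95_P251672 (D83711), was so on 5 WT arrays. It was higher in L2 by 0.94 under normal conditions and by 0.96 under salt stress.

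**Figure D1:**
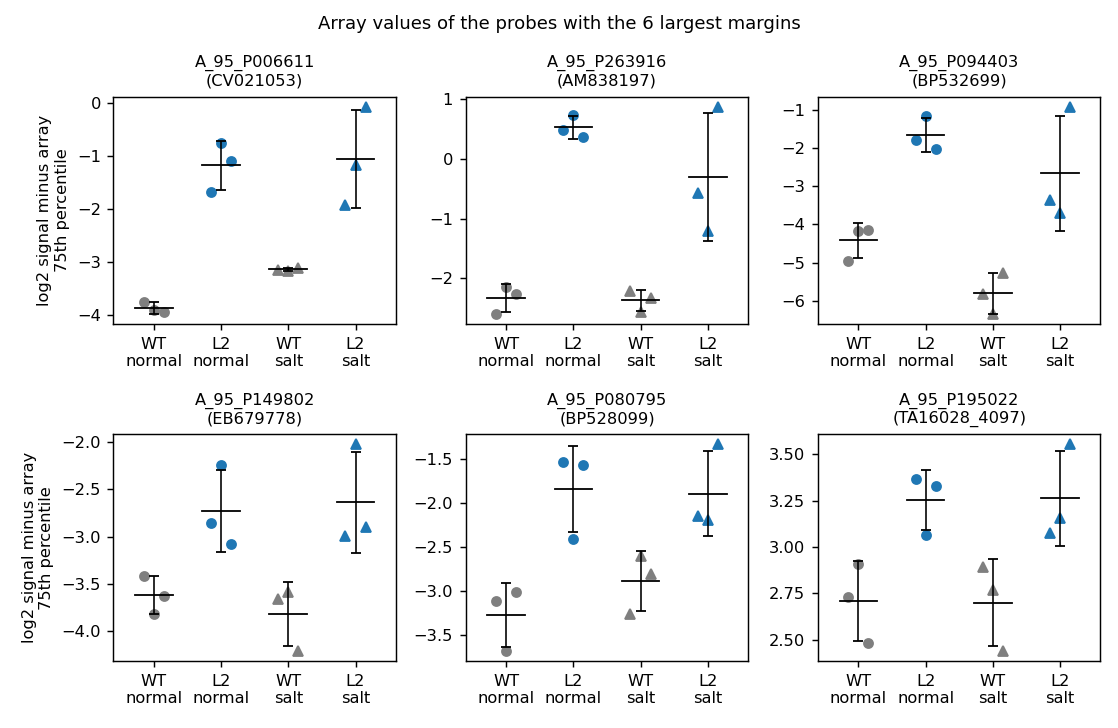
Values of the 6 probes with the largest margins on each of the 12 arrays, as log2 signal relative to the array's 75th percentile; grey marks are WT, blue marks L2, circles normal conditions and triangles salt stress, and the lines and bars give the mean and SD of 3 arrays. In the first 3 panels the L2 mean stands about 2 to 3 units above the WT mean in each condition, and L2 sample 3 is the highest of the salt arrays. Some single L2 arrays under salt stress lie nearer to WT. The WT salt values of A_95_P094403 are at background, so the difference there is only a bound. In A_95_P195022 the lines are nearer, with the lowest L2 array 0.16 above the highest WT array.

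Since every L2 array of these 3 probes had to lie above every WT array, their differences within a slide could only be above 0, and their sizes are given as a description. On slide 1, L2 sample 1 was above the mean of the WT arrays by 2.19 for A_95_P006611, by 2.82 for A_95_P263916 and by 2.62 for A_95_P094403. For the last of these, 2 of the 3 WT arrays were well above background. On slide 3, where both lines were under salt stress, the 3 L2 arrays were on average above WT sample 3 by 2.05 for A_95_P006611 and by 2.02 for A_95_P263916. On slide 2 the L2 arrays were from normal conditions and the WT arrays from salt stress, and there the differences were 2.22 and 2.94. For A_95_P094403 no difference is given on slides 2 and 3, where its WT values were at background.

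The next probes in the ranking were dim as well and differed less. A_95_P149802 (EB679778) read -3.42, -3.81 and -3.62 in WT against -2.86, -2.24 and -3.08 in L2 under normal conditions, and -3.65, -3.59 and -4.21 against -2.99, -2.03 and -2.90 under salt stress. A_95_P080795 (BP528099) read -3.11, -3.68 and -3.01 in WT against -1.54, -2.40 and -1.57 in L2 under normal conditions, and -3.27, -2.60 and -2.81 against -2.15, -2.20 and -1.34 under salt stress. The L2 and WT arrays did not overlap for either probe, by 0.34 and 0.19. The fold differences were 1.86 and 2.26 for the first and 2.69 and 1.99 for the second, under normal conditions and salt stress respectively.

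The sixth to the fifteenth probe differed by less than 2-fold in both conditions. A_95_P195022 (TA16028_4097) was a bright example, at 2.73, 2.91 and 2.48 in WT against 3.36, 3.07 and 3.33 in L2 under normal conditions, and at 2.89, 2.77 and 2.44 against 3.08, 3.16 and 3.55 under salt stress. It was 1.46-fold higher in L2 under normal conditions and 1.48-fold higher under salt stress. A_95_P236779 had no accession and was 1.83-fold and 1.48-fold higher in L2, with the L2 arrays under normal conditions spread from -0.50 to 0.59. A_95_P195847 (FG637321) was 1.53-fold and 1.69-fold higher, from a WT level of 2.79 ± 0.33 (SD, n = 3) and an L2 level of 3.41 ± 0.15 under normal conditions. A_95_P028231 (EB679141) was 1.42-fold and 1.72-fold higher. The other probes of the first 12 were A_95_P240698 with no accession, A_95_P275393 (AM795157) and A_95_P108257 (CV018747), with differences between 0.32 and 0.75. A_95_P066935 (BP136730), A_95_P000741 (TA12963_4097) and A_95_P307643 (FG639010), named here after their values were seen, completed the 15 without overlap, with margins of 0.038, 0.026 and below 0.001.

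**Figure D2:**
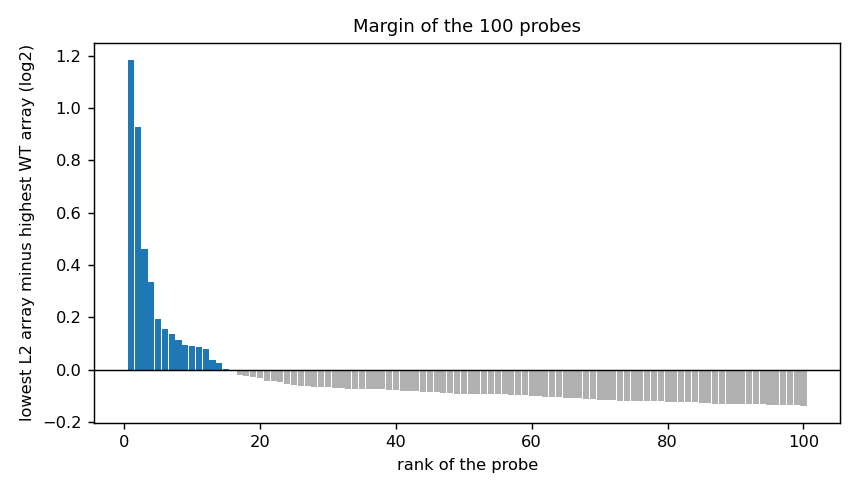
Margin of each of the 100 probes by rank, as the lowest L2 array minus the highest WT array in log2 units; blue bars are above 0 and grey bars at or below 0. The bars fall from 1.18 to below 0 within the first 15 ranks, and the remaining 85 lie between 0 and -0.14.

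Over the 20691 probes ranked, 15 had all 6 L2 arrays above all 6 WT arrays (0.0725%). Read the other way, 14 probes well above background on all 6 WT arrays had every WT array above every L2 array. They came from another pool, chosen by the WT arrays and with nothing left out, whose size was not recorded. No share is therefore given, and the 15 and the 14 are not like for like. The margin is set by single arrays. The lowest L2 array was L2 sample 1 under normal conditions for 26 of the 100 probes and each of the other 5 L2 arrays for 8 to 19. The highest WT array was a salt array for 65, with WT sample 1 under salt stress the most frequent (27). Without L2 sample 1 under normal conditions, 48 of the ranked probes had a margin above 0, and 24 of the 100 did. That gain could only go one way, since a margin cannot fall when an array is left out.

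The ranking ended among probes that barely differed. The last 5 inside the limit were A_95_P035328, A_95_P013166, A_95_P286993, A_95_P157472 and A_95_P212437, with margins from -0.134 to -0.137. The first 5 outside were A_95_P016011, A_95_P145252, A_95_P132497, A_95_P108922 and A_95_P126487, from -0.138 to -0.141. One probe outside the limit, A_95_P016011 (TA12629_4097), differed more between the lines than any of the last 5 inside. It read 0.20, 0.51 and 0.05 in WT against 1.01, 1.40 and 1.80 in L2 under normal conditions, and was kept out by the WT salt array at 1.15.

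Over the 100 probes, the median difference between L2 and WT was 0.30 under normal conditions (1.23-fold; lower and upper quartile 0.12 and 0.57, range -0.03 to 2.86) and 0.26 under salt stress (1.20-fold; quartiles 0.14 and 0.52, range -0.05 to 3.14). Over all ranked probes the medians were -0.12 and 0.05. These differences chose the members and are given as a description. The L2 mean was above the WT mean in both conditions for 95 of the 100, against 17.5% of the ranked probes. The 3 L2 arrays lay above the 3 WT arrays without overlap for 59 probes under normal conditions (9.13% of the ranked probes), for 48 under salt stress (9.26%) and in each condition separately for 33 (0.411%). For 26 of the 100 the lines overlapped in both conditions.

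The size of the difference averaged over both conditions was above 1 for 7 probes and above 0.5 for 26, and it was below 0.3 for 53. Beside the 5 with the largest margins, the 7 included A_95_P295098 with no accession (2.44-fold under normal conditions and 1.85-fold under salt stress) and A_95_P052146 (BP132844; 2.48-fold and 1.68-fold). The first did not overlap between the lines within either condition, but its lowest L2 array under normal conditions lay below its highest WT array under salt stress. The second overlapped under salt stress. At the other end stood A_95_P030376 (TA15846_4097), at 0.45, 0.49 and 0.46 in WT against 0.54, 0.42 and 0.47 in L2 under normal conditions. Its lines differed by 0.013 and 0.018, less than the spread within groups. The smallest differences under normal conditions were those of A_95_P129642 (-0.032), A_95_P035328 (-0.010) and A_95_P286993 (-0.005), and under salt stress those of A_95_P101888 (-0.050), A_95_P222262 (-0.022) and A_95_P001106 (0.012). Of these, A_95_P129642 (EB429605) was level under normal conditions but read 1.11, 1.18 and 1.34 in WT and 1.72, 1.68 and 1.74 in L2 under salt stress, without overlap.

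**Figure D3:**
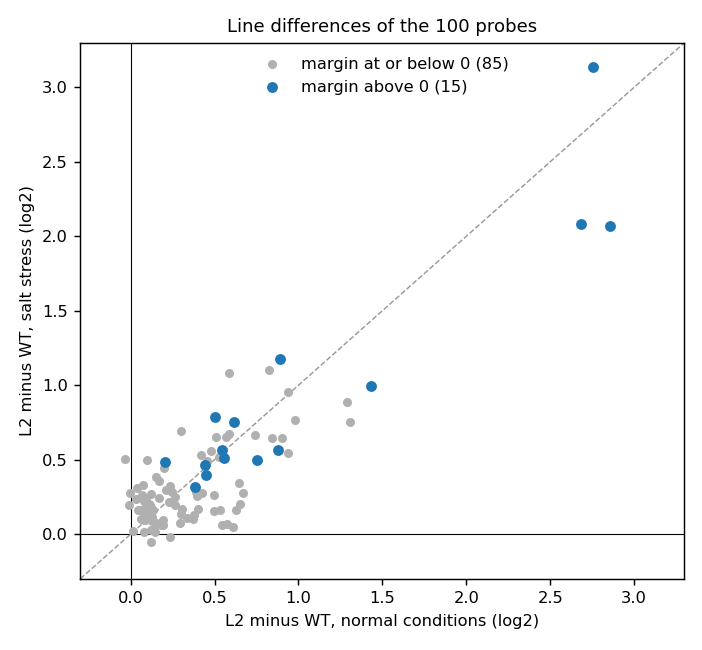
Mean of 3 L2 arrays minus mean of 3 WT arrays under normal conditions (horizontal) and under salt stress (vertical), in log2 units, for the 100 probes; blue points have a margin above 0, grey points do not, and the dashed line marks equal differences. Of the 100 points, 3 lie beyond 2 on both axes, and most gather below 0.6 on both.

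Probes that vary little between arrays can enter such a ranking with a small difference. The spread within a group (SD pooled over the 4 groups) had a median of 0.15 over the 100 probes, from 0.06 to 0.86, against 0.27 over the ranked probes. Brightness differed less: the median of the mean level was 0.27, against 0.15, and the 100 covered levels from -3.66 to 3.82. Over the array surface the probes were spread, with 31, 23, 21 and 25 of them in successive blocks of rows. The blocks were cut at the quartiles of row number over all probes and held 25.0%, 24.5%, 25.4% and 25.1% of the ranked probes. The local floor, the 10th percentile of the raw signal of neighbouring spots, lay more than 2-fold from the median floor of the array for 5 of the 100 on at least 1 array, and for none of the first 15. The largest of these shifts was at A_95_P132937 (-1.28) and A_95_P001441 (1.28).

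Within slides the median difference over the 100 probes was 0.26 on slide 1 (92 of 100 above 0; median over the ranked probes 0.029), 0.24 on slide 2 (96 of 100; -0.062) and 0.33 on slide 3 (90 of 100; 0.040). Slide 1 compared 1 L2 array with 3 WT arrays under normal conditions and slide 3 compared 3 with 1 under salt stress. Slide 2 compared 2 L2 arrays under normal conditions with 2 WT arrays under salt stress, so line and condition cannot be told apart there. The sets of arrays used for these values are those of the rule, so the counts describe the ranking and do not test it.

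Several accessions were covered by more than 1 probe. The 2 probes of AF191497, A_95_P238099 and A_95_P209057, were both chosen into the 100, with differences of 0.26 and 0.31 under normal conditions and of 0.25 and 0.17 under salt stress. Their values over the 12 arrays correlated at r = 0.91. The 100 probes had 19 other probes of the same accessions that were well above background on all 6 L2 arrays but outside the set, and whose own values did not choose the members. Of these, 8 were higher in L2 on average in both conditions (17.5% of the ranked probes) and 11 were lower in at least 1. Their median differences were 0.07 under normal conditions and 0.20 under salt stress, against -0.12 and 0.05 over the ranked probes. Some accessions gave more than 1 of the 19.

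For some accessions the other probe was also higher in L2 on average in both conditions, although its lines overlapped over the 12 arrays. A_95_P107002 (FG641470) was higher in L2 by 0.74 and 0.66, and the second probe of that accession, A_95_P001071, by 0.46 and 0.58 (r = 0.95 over the 12 arrays). The margin of A_95_P001071 was -0.23. A_95_P028231 (EB679141) was higher by 0.51 and 0.78, and A_95_P178467 by 0.87 and 0.50, with a margin of -0.37. A_95_P001441 (FG636697) was higher by 0.82 and 1.1, and the dimmer A_95_P107237, at a mean level of -2.99, by 1.52 and 1.1. The lines overlapped widely for A_95_P107237, which had a margin of -1.50 and rank 17863. Its values correlated with those of A_95_P001441 at r = 0.58. For A_95_P100978 (TA12699_4097) the differences were 0.48 and 0.56, and for A_95_P180252 they were 0.86 and 0.40. A_95_P180252 was also dim, at a mean level of -2.99, and had a margin of -0.53 and rank 3616. In contrast, DV162682 had 2 probes in the set, with differences of 0.06 to 0.18, and 2 outside it that were lower in L2 in both conditions, A_95_P119462 by -0.46 and -0.20 and A_95_P224172 by -0.14 and -0.04. These pairs of probes were picked for naming after their values were seen.

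A group of the 100 probes varied together among arrays of the same line and condition, which the rule did not ask for. When each value was set against the mean of its own group, 21 probes joined in one cluster (average linkage, correlation distance below 0.4), with a median correlation between pairs of 0.77. The cluster held 8 of the 15 probes without overlap, from A_95_P195022 to A_95_P000741, but none of the 5 with the largest margins. On average its probes deviated by 0.26 in WT sample 2 and -0.27 in WT sample 3 under normal conditions, and by 0.27 in WT sample 1 and -0.25 in WT sample 3 under salt stress. In L2 they deviated by 0.22 in sample 3 under normal conditions, and by -0.17 in sample 1 and 0.18 in sample 3 under salt stress. The 3 WT arrays under normal conditions shared a slide, so these deviations also occurred within one slide.

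The 21 probes were brighter than the set as a whole, with a median level of 1.45. Their median difference between the lines was 0.58 under normal conditions and 0.65 under salt stress, differences of the kind that chose the members. The probe that followed the mean of the cluster most closely was A_95_P002516 (FG170570; r = 0.97). It was 0.84 higher in L2 under normal conditions and 0.65 higher under salt stress. Of the ranked probes outside the 100, 35 followed the mean deviation at r above 0.8, of 53 in all (0.256%), the closest being A_95_P074695 (BP526534; r = 0.97). None of the 20 annotated probes that could have been ranked reached r = 0 with it. The clusters were formed after the values were seen, the correlations cover 12 arrays that share slides and scaling, and they are given as a description.

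**Figure D4:**
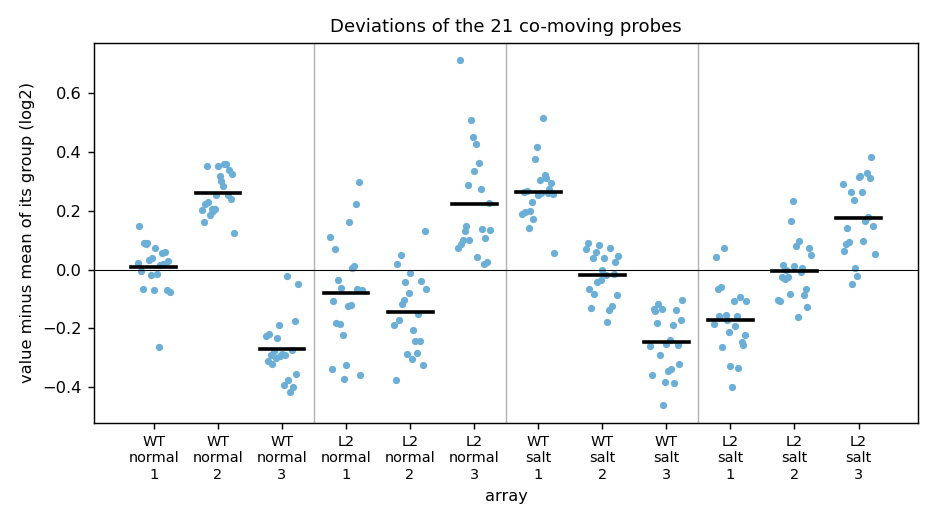
Value minus the mean of its own group of 3 arrays, in log2 units, for the 21 probes of the co-moving cluster on each of the 12 arrays; each point is a probe and each black line the mean of the 21. The points shift together between arrays of one group, for example from 0.26 in WT normal sample 2 to -0.27 in WT normal sample 3.

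A second cluster of 10 probes, from A_95_P027411 (EB450337) to A_95_P279523 (FG155117), deviated by 0.22 in L2 sample 3 and by -0.13 in L2 sample 1 under normal conditions, and by 0.12 in L2 sample 1 under salt stress. In WT the deviations of this cluster stayed between -0.05 and 0.05. It held none of the 15 probes without overlap, and its median differences between the lines were 0.24 under normal conditions and 0.10 under salt stress. Of the ranked probes outside the set, 257 followed the mean deviation of this cluster at r above 0.8, of 267 in all (1.29%). The pattern was thus not confined to the set.

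Salt stress was compared with normal conditions within each line with limma, over 26312 probes tested, and a probe was called where it changed more than 2-fold with a p below 0.05 after Benjamini-Hochberg adjustment over all of them. The rule bears on these comparisons, because a probe that salt moved in both lines by more than the lines differ could not keep its margin. In WT, 1 of the 100 probes was called, and it fell. Of all probes tested, 13% were called, 6.06% upward and 6.95% downward. In L2 none of the 100 was called by limma (0.118% of all tested, 0.0152% upward and 0.103% downward). None passed at any fold either (0.129% of all tested), and 3 had an unadjusted p below 0.05 (16.7% of all tested). The median salt difference over the 100 probes was 0.01 in WT and 0.01 in L2, against -0.19 and -0.002 over all probes tested. The range over the 100 was -1.38 to 0.73 in WT and -0.997 to 0.41 in L2.

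The probe called in WT was A_95_P303398 (FG201406). It read -2.38, -2.60 and -2.52 in WT under normal conditions and -3.58, -3.39 and -3.70 under salt stress, without overlap. In L2 it read -1.58, -2.15 and -2.02 and then -2.43, -2.47 and -2.52. In WT it fell by 1.06 on the log2 scale (SE 0.17; limma adjusted p = 0.0113), and the mean of both lines fell by 0.81 (SE 0.12; limma adjusted p = 0.00624). In L2 the difference was -0.56 (limma adjusted p = 0.161), and the 2 lines were not shown to differ in their response (0.50; limma adjusted p = 0.299). The limma call in WT was lost with the slide as a block (-0.48; adjusted p = 0.718) or as a random block (-0.80; adjusted p = 0.239). It also fell below the 2-fold limit under 4 other scalings, with array weights (-0.99) and without WT sample 1 under normal conditions or WT sample 3 under salt stress.

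A_95_P106622 (AJ276035), named after its values were seen, was the one other member below an adjusted p of 0.05 in WT (23.3% of all tested at any fold). It read 0.29, 0.40 and 0.44 under normal conditions and 0.90, 0.90 and 0.89 under salt stress, a rise of 0.52 that stayed under 2-fold (limma adjusted p = 0.0371). In L2 it read 0.80, 1.00 and 1.21 under normal conditions, of which the last 2 lay above every WT value, and 1.24, 1.02 and 0.90 under salt stress (0.05; limma adjusted p = 0.900). The WT rise did not pass with the replicate number as a block (adjusted p = 0.0543) or with the slide as a block (adjusted p = 0.922), and it missed the threshold in 11 of 26 alternatives in all.

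The 3 probes with the largest line differences were not called for salt in either line. For A_95_P006611 the salt difference was 0.73 in WT (SE 0.38; limma adjusted p = 0.166) and 0.12 in L2 (adjusted p = 0.902). For A_95_P263916 it was -0.04 in WT (limma adjusted p = 0.953) and -0.83 in L2 (SE 0.41; adjusted p = 0.332). For A_95_P094403 it was -1.38 in WT (SE 0.61; limma adjusted p = 0.112) and -0.997 in L2 (adjusted p = 0.442), and the WT levels under salt stress were at background. Without L2 sample 3 under salt stress, whose value of -0.93 lay far from -3.37 and -3.69, A_95_P094403 was called as lower under salt in WT (limma adjusted p = 0.0245) and in the mean of both lines (-1.62; adjusted p = 0.0134). The SE of the WT difference was 0.33 without that array and 0.61 with it. No WT group had A_95_P094403 well above background on all 3 arrays, so it entered the test through the L2 arrays alone. Nothing is read from its salt calls.

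How the 2 lines differed in their salt response was not called for any of the 100 probes or for any other probe tested (0% of 26312) by limma. Its unadjusted p was below 0.05 for 1 of the 100 and for 17.9% of all probes tested. Over the 100 probes it ranged from -0.79 to 0.53, with a median of -0.01, against 0.15 over all probes tested. With array weights, limma called 2 of the 100, A_95_P006611 (-1.09; adjusted p = 0.0113) and A_95_P263916 (-1.48; adjusted p = 0.0129), both with a lower response in L2, against 20.3% of all tested. Without L2 sample 1 under normal conditions, the array that stood apart, 16.7% of all tested were called and still 0 of the 100. Salt stress averaged over both lines gave 0 calls among the 100 by limma, against 6.23% of all tested (3.32% upward and 2.91% downward), and 6 of the 100 had an unadjusted p below 0.05 (39.1% of all tested). Since the rule limits how far the members could move with salt, these shares are printed beside the background and nothing is read from them.

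**Figure D5:**
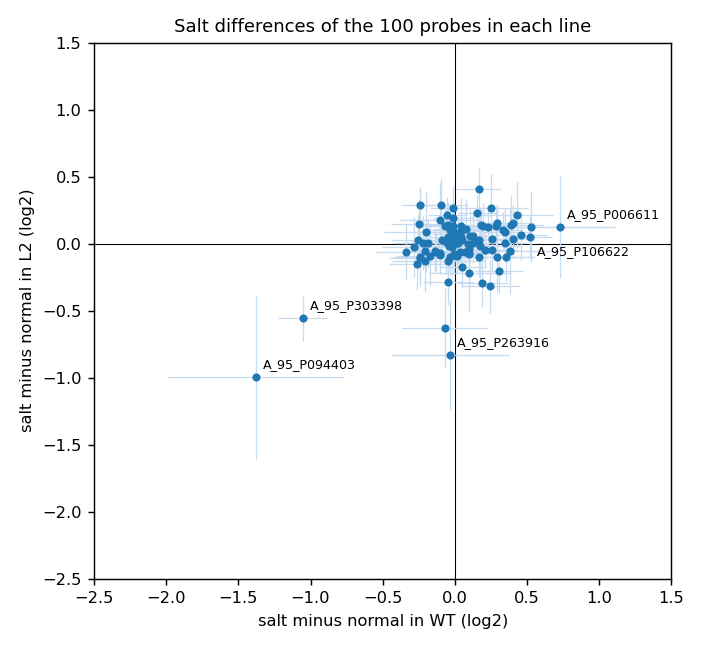
Salt minus normal conditions in WT (horizontal) and in L2 (vertical), in log2 units, for the 100 probes; bars are the standard errors from limma. Most points lie within 0.5 of 0 on both axes, and A_95_P303398 and A_95_P094403 stand apart at the lower left.

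The annotated transcripts of the study were elsewhere in the ranking. Of its 61 annotated probes, which the study chose on the salt arrays analysed here, 30 were well above background on all 6 L2 arrays and 20 of these were not left out by the rule. The one nearest to the set was the tropinone reductase homolog A_95_P282903 (AM847814), at rank 154 with a margin of -0.18. Tropinone reductases act in the synthesis of tropane alkaloids. It read -2.16, -2.30 and -1.82 in WT against -1.36, -1.98 and -1.49 in L2 under normal conditions, and -2.24, -2.35 and -2.32 in WT and -1.22, -1.33 and -1.99 in L2 under salt stress. The next was a secretory peroxidase (A_95_P249287) at rank 3515. The tobacco plastidial omega-3 desaturase NtFAD7 (A_95_P237544, accession D79979) makes trienoic fatty acids in chloroplasts, as the microsomal enzyme does outside them. It was not a member, at 4.23 ± 0.15 in WT against 3.89 ± 0.37 in L2 under normal conditions and at 3.78 ± 0.07 and 4.11 ± 0.19 under salt stress (SD, n = 3 each).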

How the data were processed

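Leaf RNA of 12 samples was hybridised to one-colour Agilent arrays with 45220 spots and 43759 probes. Spot intensity was read by the authors with Feature Extraction of Agilent, version 11.5.1.1 per the file headers but 10.7.3.1 per the submitters' processing notes. The deposited intensity values had no scaling across arrays. A deposited table holds log2 values of the processed signal, shifted so that each array's 75th percentile is 0, as checked against the scanner values (100% of probes with 1 spot within 0.01 of one shift per array). Per array, 49.2% to 63.0% of probes exceeded background clearly, and signal over background limits the precision. GeneSpring GX is named in the methods for this step.

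Members, margins, array values and line differences came from the deposited table. Salt tests were run on the scanner's processed signals put on the same scale, with control spots and outlier spots left out and the spots of a probe averaged. A probe entered the test if all 3 arrays of some group had it well above background (26312 probes). One model of the 4 group means was fitted in R 4.3.3 with limma 3.58.1 (lmFit, eBayes), with 8 residual degrees of freedom, and the fit was tested on simulated data. Python 3.11.15, pandas 2.3.3, numpy 2.4.6, scipy 1.17.1 and matplotlib 3.10.9 were used for the rest. The members and lists were chosen with earlier results of these data known, and so no test of the lines is given for them.

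Named are the 12 largest margins, the 5 probes on each side of the limit, members called for salt, the 3 largest and smallest line differences in each condition and probes below background in WT. Lists of functions and of cell types could not be looked up, since nothing in the scanner values describes a probe, and no sequence was at hand to print. The labelled tissue, leaf, was not checked against markers. The local floor was taken over spots within 7 rows and 2 columns, against the median floor of the array, a reference chosen after seeing the data. The scanner values held no mean signal, so normexp with an offset of 50 was run on the median signal. Alternatives concerned background correction, scaling, filter, slide, replicate number, array weights, test, call rule and each array left out. Where samples come from separate cultures is not stated beyond the pooled plants, so p-values measure the spread between these samples.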

Additional observations from a re-analysis of the deposited data

How the results depend on the processing

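The median L2 minus WT difference of the 100 probes lay between 0.26 and 0.43 under normal conditions (0.43 with the 75th percentile of detected probes) and between 0.20 and 0.33 under salt stress over the alternatives run. Chosen again, the set shared 58 probes with the original on quantile normalized values, 37 on normexp values, 46 on values scaled to the median of each array and 9 when ranked by the mean difference. With 1 array left out it shared 37 to 89, the lowest without L2 sample 1 under normal conditions. Of the 15 probes without overlap, 12 stayed in the set under all 3 scalings and 9 kept a margin above 0. Over all ranked probes, 23 had a margin above 0 with scaling to the median, and 18 to 48 with 1 array left out.

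The count of members called for salt in WT (1) became 0 with normexp (6.40% of all tested called) and quantile normalization (11.2%). It was also 0 with the 75th percentile of detected probes (12.5%) and the median of each array (12.5%). With the slide as a block or random block it was 0 too, but there 0% and 0.0038% of all tested were called. The count became 2 with no fold limit (23.3%) or with the WT groups alone (16.5%). With 1 array left out it ranged from 0 to 2, against 1.96% to 15.7% of all tested. It was 0 without WT sample 1 under normal conditions (5.20%) or WT sample 3 under salt stress (9.70%). It was 2 without L2 sample 3 under salt stress (13.2%). With array weights the 1 call in WT was another probe, A_95_P094403 (18.9% of all tested called). It was also the second call with the WT groups alone and without L2 sample 3 under salt stress. Its WT levels under salt stress were at background, so nothing is read from these calls. They gave 2 calls in L2 (6.94% of all tested), 2 for the difference of the responses (20.3%) and 1 for the mean of both lines (6.58%), where no fold limit also gave 1 and leaving out 1 array 0 to 1.

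The median salt difference in WT moved to 0.10 with quantile normalization, 0.15 with detected probes and 0.13 with the median of each array. In L2 it moved to 0.15 with the median of each array and to 0.077 with slides blocked. That of the mean of both lines moved to 0.16 with the median of each array. The difference of the responses moved to -0.10 with normexp, -0.15 with quantile normalization, -0.20 with detected probes and 0.084 with slides blocked. The cause was not tested. Scaling moved all probes too: their median in L2 was -0.002, and 0.14 with the median of each array.

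Over all groups, samples with the same replicate number correlated above 0.1 in 6 of 18 pairs (from -0.39 to 0.41). Those with different numbers did so in 12 of 36 (from -0.38 to 0.36). Between normal conditions and salt stress, same-number pairs correlated at 0.36, 0.06 and 0.41 in L2 and at -0.29, 0.07 and -0.08 in WT. No pairing was assumed, but one within L2 is not excluded. With the replicate number as a block, the count of members called stayed at 1 in WT (13.2% of all tested). It stayed at 0 in L2 (0.186%), for the difference of the responses (0%) and for the mean of both lines (6.31%). A_95_P303398 had a limma adjusted p of 0.0167 in WT. The co-moving cluster held 15 to 25 probes under other distance limits and scalings, but with scaling to the median the largest cluster held none of the 21, 15 of which lay in another. Chosen after seeing the data were the alternatives for the cluster, the local floor and the margin, and, for the line differences, detected probes, array weights and the random slide block. Of the methods' t-test, the difference of the responses and the mean of both lines were not run.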
